A study of Brassica napus with 6 samples.

Results

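Chromosome C03 of rapeseed (Brassica napus) carries the copy of LEAFY that the study edited, and the genes of this chromosome were described in shoot apices of edited and unedited plants. The deposited table held 7342 rows on C03, recognised by the start of their IDs, out of 100194 rows in all. A row was kept when it had 10 or more counts in at least 3 of the 6 libraries, whichever group they belonged to. This left 3774 C03 genes (51.4% of its rows), of 48824 such genes on all chromosomes and scaffolds. The wild type was the cultivar Westar and the mutant, BnaC3.lfy△I2, lacked intron 2 of the C3 LEAFY copy. Each group had 3 libraries of poly(A)-selected RNA from chamber-grown shoot apices. The labels give no plant age, no number of plants per library and no number of edited lines, so each p-value below reflects how far these libraries vary, and part of that variation may be technical. In bulk apices, fewer cells of a type and less RNA per cell cannot be told apart.

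LEAFY is a plant-specific transcription factor that turns the flanks of a shoot apex into floral meristems, and its level rises as an Arabidopsis plant moves from leaf production to flowering. Introns can hold regulatory sequence, and the comparison addresses the role of this intron in when inflorescences form. Rapeseed joined an A subgenome, from a relative of Brassica rapa, with a C subgenome, from a relative of Brassica oleracea. Most C03 genes therefore have close relatives elsewhere in the genome, and short reads can be hard to assign between such copies. Nearby genes of 1 chromosome tend to be inherited together, and the edited chromosome was followed here from end to end.

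The rows carry IDs without names, and 0 of the IDs matched the RefSeq gene table of the Da-Ae assembly. Which C03 row is LEAFY is therefore not known here, neither the edited gene nor markers of the shoot apex were checked, and no C03 gene is given a function. The position of the edit among the C03 genes is unknown for the same reason. Genes are called below by their running number on C03, the digits after the T of the ID without the final 00, apart from 1 row with 0 counts in all libraries whose ID does not end in 00. These numbers ran from 1 to 7126 and every number was present. They were read as the order along the chromosome and carry no distance in bases. The table had 215 further C03 rows that repeat a number with a suffix, of which 13 passed the rule and 0 were called changed.

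Library totals ran from 15922207 to 23261028 counts. Another chromosome, A10, stood apart in mutant library 3, where the median log2 difference of its genes to the rest of the libraries was -0.32, and C09 lay at -0.06 in Westar library 1. On C03 the 6 medians ran from -0.007 to 0.02, within the range of -0.028 to 0.028 seen over the chromosomes other than C03, A10 and C09. Mutant library 3 was nonetheless the most scattered library on C03. Its median absolute deviation over the C03 genes was 0.241 (log2), against 0.18 to 0.188 in the other 5 libraries. Over the chromosomes other than C03, A10 and C09 it was also the highest, at 0.234 against 0.183 to 0.19.

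C03 was the chromosome with the most rows and the most reads. It took 7.76%, 7.69% and 7.73% of the counts of Westar libraries 1, 2 and 3, and 7.84%, 7.78% and 7.94% of those of mutant libraries 1, 2 and 3. Every mutant library was above every Westar library, by a small margin. The mean share was 7.73% ± 0.0394 for Westar and 7.86% ± 0.081 for the mutant (SD, n = 3 each). The two-sided exact permutation p was 0.1, the smallest that 3 against 3 libraries allow. Mean shares differed on other chromosomes as well, in both directions, and those were not tested. A03 was at 6.59% in Westar and 6.72% in the mutant, and A10 at 3.55% and 3.32%. A difference in share was thus not particular to C03. Without mutant library 3 the C03 difference was 0.0836 percentage points in place of 0.127. As a share of the C subgenome alone, C03 was at 15.4% ± 0.0991 for Westar and 15.6% ± 0.0905 for the mutant (SD, n = 3 each), and the groups overlapped (two-sided exact permutation p = 0.2). Without the 5 C03 genes that took the most reads, the difference in share was 0.0446 percentage points (exact permutation p = 0.7, n = 3 each), a step added after the data were seen. The number of C03 rows with 10 or more counts was 3743 ± 66.6 for Westar and 3720 ± 33.2 for the mutant (SD, n = 3 each), which did not differ beyond the spread (two-sided exact permutation p = 0.8).

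The share of expressed rows changed along the chromosome. In the first 1000 gene numbers, 58.9% of the rows passed the rule and 23.7% had 0 counts in all 6 libraries. In numbers 6001 to 7000, 43.9% passed and 37.9% were at 0. The silent share was higher in each further stretch of 1000 numbers up to that point, and the short last stretch, numbers 7001 to 7126, was at 31.3%. Because the 6 libraries share one annotation and one tissue, these shares describe the annotated rows and were not tested. The longest runs of rows without a single read were 9 rows long, at numbers 5863 to 5870 and 6200 to 6208. The longest run of expressed genes was 20 rows, at numbers 5780 to 5799, and it ended shortly before the first of those silent runs.

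**Figure D1:**
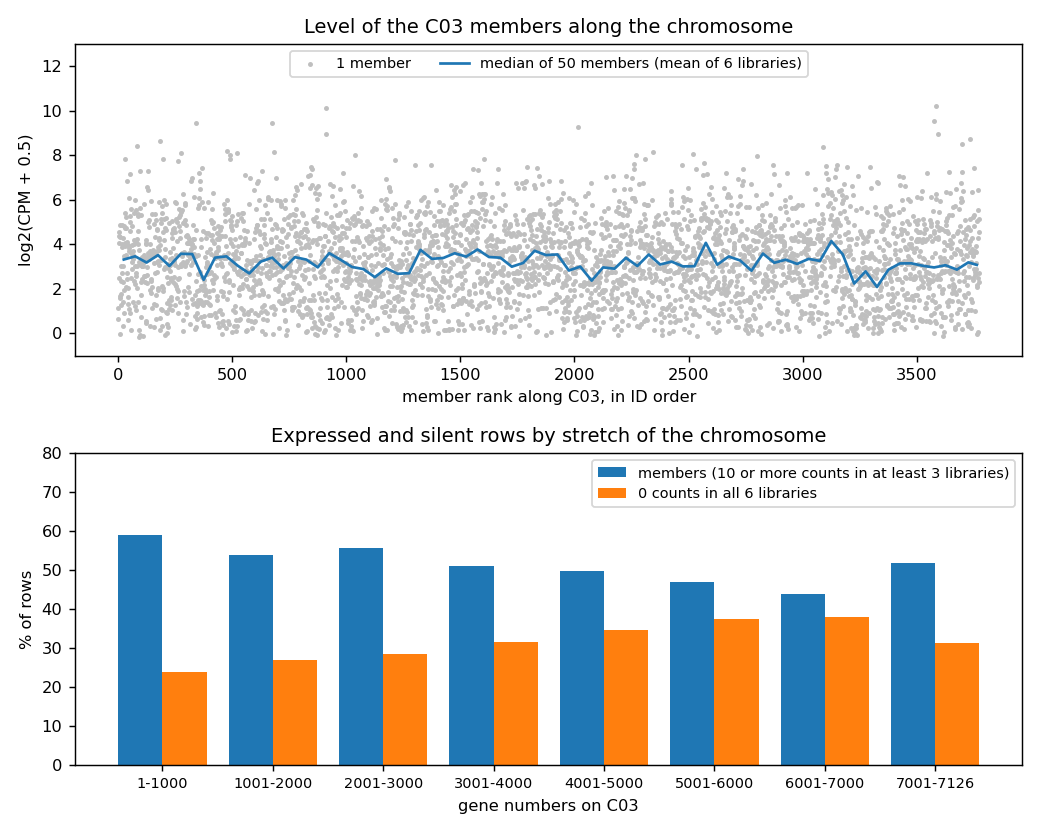
Upper panel: reads per gene, as log2(CPM + 0.5) of the mean over 6 libraries, for each expressed C03 gene (member) in ID order, with the median of windows of 50 genes as a line. Lower panel: the percentage of rows that passed the rule (blue) and that had 0 counts in all 6 libraries (orange) in stretches of 1000 gene numbers; the orange bars climb from 23.7% to 37.9% over the first 7 stretches.

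Read levels were spread widely within every stretch. CPM, the counts of a gene scaled to a common library total, was not divided by gene length, so it orders genes by reads and not by transcripts. Over the 3774 expressed C03 genes the mean CPM had a median of 8.39 (quartiles 3.25 and 20.9), beside 8.55 (quartiles 3.1 and 20.5) over the expressed genes of all placed chromosomes. The median by stretch lay between 6.88 CPM (numbers 6001 to 7000) and 8.96 CPM (numbers 2001 to 3000). In windows of 50 neighbouring genes the median log2(CPM + 0.5) ran from 2.08, at numbers 6098 to 6227, to 4.14, at numbers 5735 to 5799. The low and the high window thus lay close together, with 3 windows between them, and the plot of levels along C03 shows no long slope. Of the expressed genes, 118 reached 100 CPM, and the 10 with the most reads took 8.85% of the C03 signal.

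At the edge of the rule, 87 rows had 10 or more counts in exactly 3 libraries, with 43 to 146 counts over the 6 libraries. Just outside it, 74 rows had them in exactly 2, with 23 to 89 counts. Rows outside the rule together held 0.195% of the C03 signal. The test for a difference between the groups used a slightly different filter and covered 3748 of the 3774 genes, plus 3 rows outside the rule.

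The 5 genes with the most reads lay in separate places, except for a group near the far end. Gene 6760 had 711, 1419 and 1042 CPM in Westar libraries 1, 2 and 3 and 1523, 986 and 1446 CPM in the mutant libraries. Gene 1546 had 938, 1341 and 1097 CPM in Westar and 1343, 851 and 1180 CPM in the mutant. Gene 6748, 12 numbers before gene 6760, had 291, 972 and 593 CPM in Westar and 1323, 579 and 754 CPM in the mutant. The groups overlapped at all 3 genes, and gene 6748 spanned 291 to 972 CPM within Westar alone. Gene 1119 had 375, 811 and 507 CPM in Westar and 1120, 564 and 868 CPM in the mutant. Gene 531 had 623, 716 and 589 CPM in Westar and 820, 787 and 689 CPM in the mutant. All 5 had fitted log2 fold changes between 0.0006 and 0.59, and none passed the test (edgeR quasi-likelihood, Benjamini-Hochberg adjusted p = 0.454 to 1). Gene 1545, the direct neighbour of gene 1546, was also among the 10 with the most reads, at 488 ± 59.6 CPM in Westar and 509 ± 94.5 CPM in the mutant (SD, n = 3 each).

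Most C03 genes were at about the same level in both groups. The median log2 fold change (mutant against Westar) over the 3751 tested C03 rows was 0.007, with quartiles of -0.18 and 0.19, beside a median of 0.001 and quartiles of -0.19 and 0.19 over all 48524 tested genes. The values were above 0 for 1918 C03 genes and below 0 for 1833. The fitted change was 2-fold or more for 111 C03 genes (2.96%), 74 upward and 37 downward. Over all tested genes it was 2-fold or more for 2.96%, 920 upward and 518 downward. C03 was at the background share in this respect.

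The mutant differed from Westar at 8 of the 3751 tested C03 genes, 0.213%, where 0.194% of all tested genes were called (edgeR quasi-likelihood test, adjusted p under 0.05). Of the 8 genes, 5 rose, where 0.124% of all tested genes rose, and 3 fell, where 0.0701% fell. At an unadjusted p under 0.05 there were 453 C03 genes, 12.1%, beside 11.5% of all genes. Every mutant library was above every Westar library at 368 C03 genes (9.81%, beside 8.83% of all genes), and below at 351 (9.36%, beside 9.25%). The shares on C03 were thus near the background under each of these rules. On A03, the A chromosome with the most called genes, 9 of 3288 tested genes were called (0.274%), and over the 18 other placed chromosomes the called share ran from 0.0975% to 0.282%.

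The count of 8 rested on the full set of libraries. Leaving out Westar library 1 gave 1, Westar library 2 gave 3 and Westar library 3 gave 3, where 0.0366%, 0.113% and 0.0527% of all genes were called. Leaving out mutant library 1 gave 2, mutant library 2 gave 3 and mutant library 3 gave 14, where 0.0648%, 0.067% and 0.339% of all genes were called. The count on C03 was thus highest where the count over all genes was highest. Without both Westar library 1 and mutant library 3, which stood apart on other chromosomes, it was 5 (0.133%, beside 0.105% of all genes), of which 3 were among the 8. With the replicate number as a block it was 4 (0.107%, beside 0.101% of all genes), and limma-voom gave 5 (0.133%, beside 0.14%). Genes 1841, 1879, 4148 and 6127 were not called by limma-voom (adjusted p = 0.0625 to 0.132). DESeq2 called 73 C03 genes (1.95%, beside 1.61% of all genes), and all 8 were among the 73. Of the 73, 50 were higher in the mutant, and the split over all genes is not given here.

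**Figure D2:**
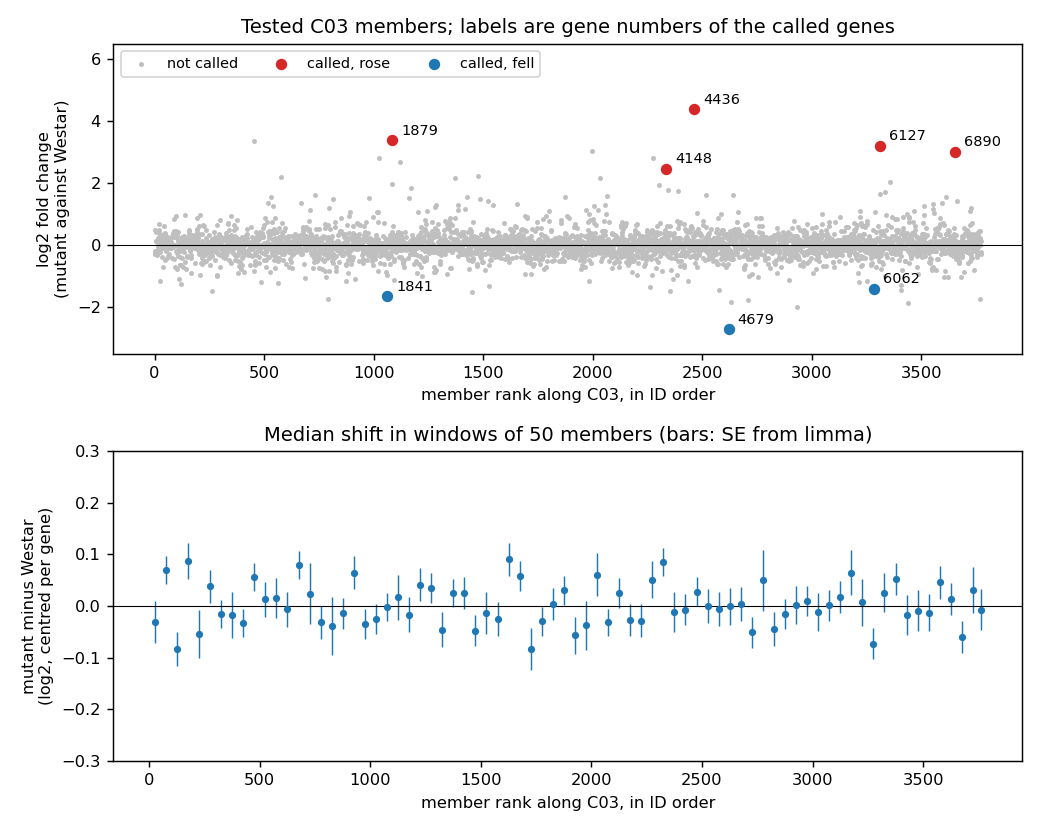
Upper panel: log2 fold change, mutant against Westar, of each tested C03 gene in ID order; the 8 called genes are coloured (5 rose, 3 fell) and labelled with their gene numbers, and the first lies at number 1841. Lower panel: median shift of windows of 50 genes after centring each gene on its own mean, with SE; the 76 windows lie between -0.084 and 0.09.

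The called genes lay from number 1841 to number 6890, and the closest pair was 38 numbers apart. By stretch, 2 of 551 tested genes were called in numbers 1001 to 2000. In numbers 4001 to 5000 it was 3 of 516, and in numbers 6001 to 7000 it was 3 of 449. Over all chromosomes and scaffolds 0.194% of the tested genes were called, so such small counts say little about placing along C03, which was not tested. The remaining stretches held 0 of the 8, among 599, 576, 514, 478 and 68 tested genes in order. In Westar the 5 genes that rose had 0.0875 to 8.55 CPM, and in the mutant 1.71 to 69.2 CPM. The 3 that fell had 6.2 to 29.3 CPM in Westar and 0.945 to 11.1 CPM in the mutant.

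**Figure D3:**
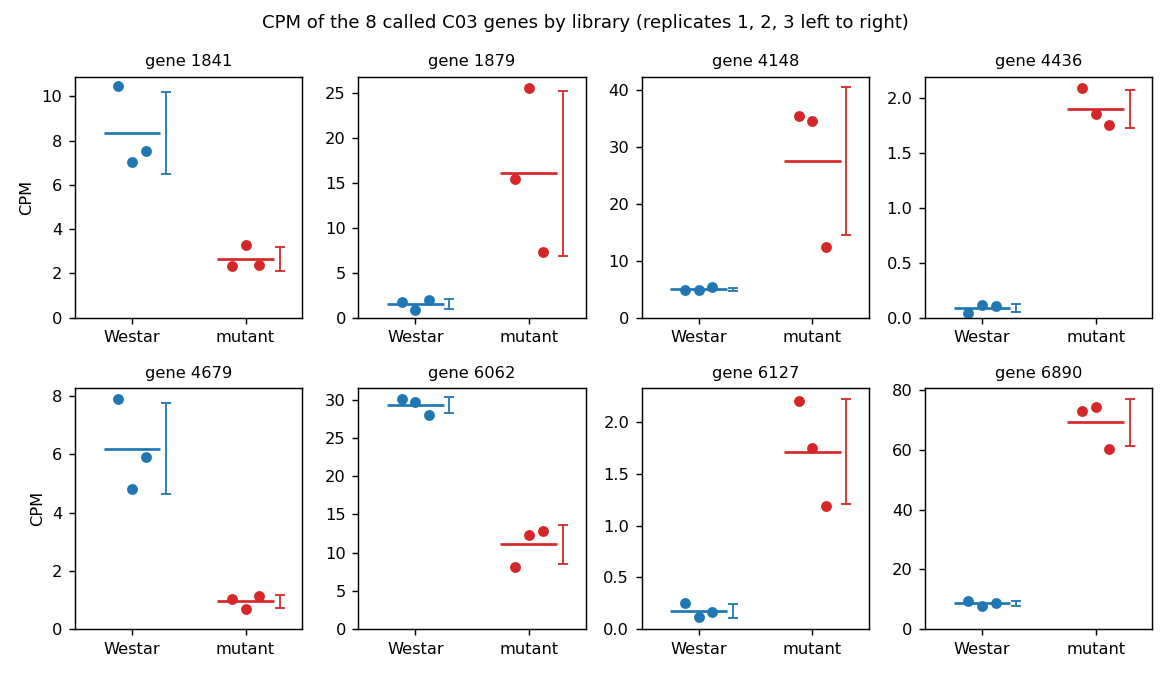
CPM of the 8 called C03 genes in each library (points, replicates 1 to 3 from left to right), with the group mean (line) and SD (bar beside it); each panel has its own axis from 0. In every panel the 3 Westar points and the 3 mutant points are apart, and genes 1879 and 4148 show the widest spread among mutant libraries.

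Gene 6890 gave the clearest difference on C03. It had 223, 133 and 164 counts in Westar libraries 1, 2 and 3, and 1293, 1402 and 960 in mutant libraries 1, 2 and 3. Scaled, this was 8.55 ± 0.871 CPM in Westar and 69.2 ± 7.89 CPM in the mutant (SD, n = 3 each), an 8.09-fold rise (log2 fold change 3.02, SE 0.143, edgeR adjusted p = 5.81e-05). All mutant libraries were high and all Westar libraries low, with no value in between. It was the single C03 gene whose call held in each of the 14 alternative analyses, with a highest adjusted p of 0.00184 and log2 fold changes of 2.94 to 3.17. The 6 rows before it and the 5 rows after it, up to the nearest expressed gene on each side, had 0 counts in all libraries. Those nearest expressed genes, 6883 and 6896, had 5.49 ± 1.01 and 3.14 ± 0.33 CPM in Westar and 4.37 ± 1.6 and 2.86 ± 1.6 CPM in the mutant (SD, n = 3 each), and neither passed the test (edgeR adjusted p = 0.677 and 0.913). Gene 6890 thus stood alone in a stretch otherwise without reads.

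The largest fitted rise was that of gene 4436 (BnaC03T0443600WE), which was nearly silent in Westar. It had 1, 2 and 2 counts in the Westar libraries and 37, 35 and 28 in the mutant libraries. The log2 fold change was 4.4 (SE 0.504, edgeR adjusted p = 0.0141), but its size rests on 5 Westar counts in all and depends on the prior count of the fit. The call was lost on leaving out any of 4 libraries (Westar 1 or 3, mutant 1 or 2; edgeR adjusted p = 0.0612 to 0.0848), with Westar library 1 and mutant library 3 both left out (adjusted p = 0.0768) and with the replicate block (adjusted p = 0.0591). Its direct neighbour, gene 4437, had 14.3 ± 0.81 CPM in Westar and 17.7 ± 1.6 CPM in the mutant (SD, n = 3 each) and did not pass (edgeR adjusted p = 0.412).

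The next rise in size, gene 1879 (BnaC03T0187900WE), varied strongly among the mutant libraries. It had 42, 15 and 36 counts in Westar and 272, 481 and 116 in the mutant. Mutant library 3 was the lowest of the mutant libraries, yet above all Westar libraries. The level was 1.51 ± 0.569 CPM in Westar and 16.1 ± 9.15 CPM in the mutant (SD, n = 3 each; log2 fold change 3.4, SE 0.459, edgeR adjusted p = 0.0313). The call was lost without any of the Westar libraries or mutant library 1 (adjusted p = 0.0746 to 0.145), and with the replicate block (adjusted p = 0.0752). It held without both libraries that stood apart (adjusted p = 0.0219).

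The gene before it, 1877, was also higher in the mutant, although it was not called. Its counts were 16, 24 and 20 in Westar and 71, 88 and 52 in the mutant, and the groups did not overlap. The log2 fold change was 1.96 (SE 0.33, edgeR adjusted p = 0.0639). The row between them had 0 counts in every library. Gene 1880, on the other side, had 68, 33 and 51 counts in Westar and 52, 62 and 62 in the mutant, with a log2 fold change of 0.44 (SE 0.261, edgeR adjusted p = 0.561). The fitted difference was thus widest at gene 1879, which was picked for its call, and smaller on either side.

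Gene 6127 likewise had a neighbour with a higher fitted level. Gene 6127 itself had 6, 2 and 3 counts in Westar and 39, 33 and 19 in the mutant (log2 fold change 3.21, SE 0.492, edgeR adjusted p = 0.0462). Gene 6128 had 34, 42 and 37 counts in Westar and 196, 48 and 69 in the mutant. Mutant library 1 was far above the rest at gene 6128, and it did not pass (log2 fold change 1.64, SE 0.494, edgeR adjusted p = 0.265). The call of gene 6127 held in 6 of its 14 alternatives and, of the libraries left out singly, it held without mutant library 3 (adjusted p = 0.0405). Without any of the other 5 libraries it was lost (adjusted p = 0.128 to 0.196), as it was with the replicate block (adjusted p = 0.0962) and without both libraries that stood apart (adjusted p = 0.0825).

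Gene 4148 had 114, 85 and 100 counts in Westar and 628, 651 and 199 in the mutant. Mutant library 3 was again the lowest mutant library, at 12.5 CPM against 35.5 and 34.5 CPM in mutant libraries 1 and 2. With all libraries the log2 fold change was 2.47 (SE 0.349, edgeR adjusted p = 0.0353). Without mutant library 3 it was 2.82 (adjusted p = 0.000196), and without any of the other 5 libraries the call was lost (adjusted p = 0.0996 to 0.183). The replicate block gave an adjusted p of 0.0655. Its nearest expressed neighbours, 4145 and 4150, had log2 fold changes of -0.07 and 0.31 and did not pass (edgeR adjusted p = 0.912 and 0.682).

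The largest fall was that of gene 4679 (BnaC03T0467900WE). It had 189, 84 and 111 counts in Westar and 18, 13 and 18 in the mutant, 6.2 ± 1.57 and 0.945 ± 0.227 CPM (SD, n = 3 each; log2 fold change -2.72, SE 0.297, edgeR adjusted p = 0.0126). The highest mutant library was at 1.13 CPM and the lowest Westar library at 4.81 CPM. The genes directly before and after it differed in opposite directions, without passing. Gene 4678 had 58.5 ± 0.487 CPM in Westar and 46.4 ± 6.72 CPM in the mutant, and gene 4680 had 15.6 ± 2.87 and 19.7 ± 0.98 CPM (SD, n = 3 each; edgeR adjusted p = 0.356 and 0.442). The call of gene 4679 held with the replicate block (adjusted p = 0.0194) and was lost without Westar library 1, Westar library 3 or mutant library 1 (adjusted p = 0.055 to 0.0698) and without both libraries that stood apart (adjusted p = 0.0648).

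Gene 6062 fell less but from a higher read level. It had 718, 520 and 528 counts in Westar and 143, 231 and 205 in the mutant. Its Westar libraries were close together, at 29.3 ± 1.08 CPM, and the mutant was at 11.1 ± 2.59 CPM (SD, n = 3 each; log2 fold change -1.4, SE 0.175, edgeR adjusted p = 0.0208). The call was lost on leaving out any Westar library or mutant library 2 (adjusted p = 0.0555 to 0.103) and without both libraries that stood apart (adjusted p = 0.0708). Its neighbours, 6058 and 6063, had log2 fold changes of -0.24 and 0.17 and did not pass (edgeR adjusted p = 0.692 and 0.793).

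The fall of gene 1841 (BnaC03T0184100WE) was the one that depended most on the set of libraries. Its counts were 250, 123 and 142 in Westar and 41, 62 and 38 in the mutant, and the groups did not overlap. The log2 fold change was -1.64 (SE 0.235, edgeR adjusted p = 0.0353). Leaving out any 1 of the 6 libraries ended the call (adjusted p = 0.0585 to 0.164), as did leaving out both libraries that stood apart (adjusted p = 0.13) and the replicate block (adjusted p = 0.0962), while the log2 fold change stayed between -1.83 and -1.37. Gene 1841 lay 38 numbers before gene 1879, which changed in the opposite direction. Westar library 1 was the highest library of its group, and mutant library 2 that of the mutant.

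**Figure D4:**
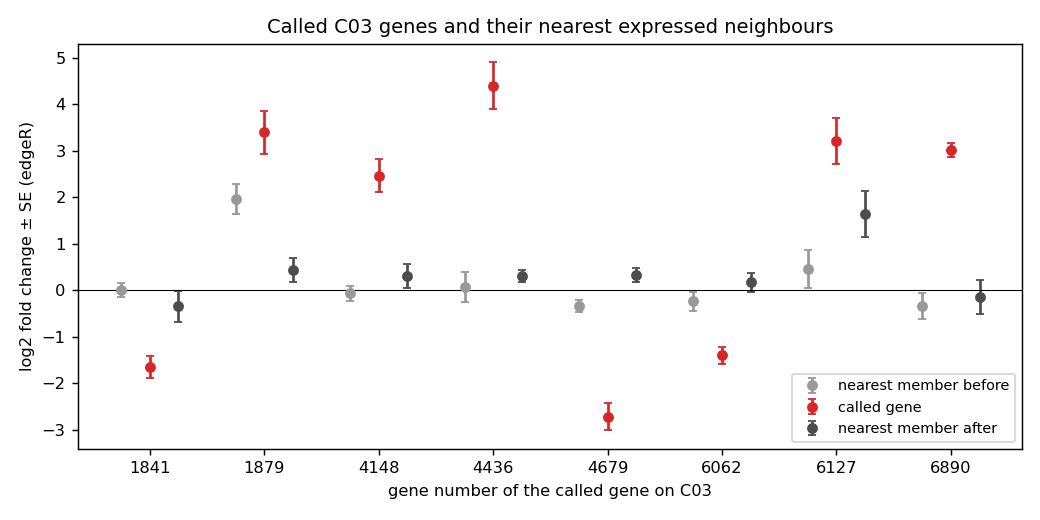
Log2 fold change, mutant against Westar, with SE, for each called C03 gene (red) and the nearest expressed gene before (light grey) and after it (dark grey). The called genes were picked for their change and the neighbours were not, so a contrast between them is built in. The neighbours lie between -0.35 and 1.96, and those before gene 1879 and after gene 6127 are the highest. The one before gene 1879 (1.96) differs more in size than the called genes 1841 (-1.64) and 6062 (-1.4).

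Over the 8 called genes, the 16 nearest expressed neighbours gave 0 calls (edgeR adjusted p under 0.05), beside 0.194% of all tested genes, a share at which 16 genes say little. At an unadjusted p under 0.05 there were 4 of the 16, beside 11.5% of all tested genes. The median of their log2 fold changes was 0.12, while 10 of the 16 lay on the same side of 0 as the called gene beside them. Of the 10 C03 genes with the smallest p outside the call, 8 had a higher fitted level in the mutant and 2 a lower one. Rises also outnumbered falls among the called genes of all chromosomes and scaffolds, 60 to 34. Gene 4610 had 318, 211 and 234 counts in Westar and 107, 88 and 47 in the mutant (log2 fold change -1.46, SE 0.232, edgeR adjusted p = 0.0526). Gene 4720 had 342, 456 and 336 counts in Westar and 1543, 886 and 727 in the mutant (log2 fold change 1.63, SE 0.288, edgeR adjusted p = 0.0759). Gene 2524 had 238, 150 and 176 counts in Westar and 267, 318 and 241 in the mutant (log2 fold change 0.76, SE 0.134, edgeR adjusted p = 0.0759). At each of these 3 genes the CPM of the Westar and mutant libraries were fully apart. With gene 1877, described above, they were the 4 genes nearest to the call, and they were chosen after the values were seen.

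Large fitted changes did not always come with a call. Of the 111 C03 genes with a fitted change of 2-fold or more, 103 were not called. The largest of these, gene 724, had 4, 0 and 1 counts in Westar and 13, 19 and 15 in the mutant (log2 fold change 3.36, SE 0.706, edgeR adjusted p = 0.125). Gene 1942 had more counts, 10, 14 and 10 in Westar and 116, 42 and 37 in the mutant (log2 fold change 2.68, SE 0.516, edgeR adjusted p = 0.0953). Its mutant library 1 was far above mutant libraries 2 and 3. At genes 724 and 1942 alike, every mutant library was above every Westar library.

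No C03 row was silent in 1 group and had 10 or more counts in every library of the other. Rows at 0 in all 3 libraries of exactly 1 group numbered 455, of which 244 were at 0 in Westar and 211 in the mutant. Of the 455, 5 had 15 or more counts in the other group. These counts were made for C03 rows only, so whether they are particular to C03 is not known. The nearest to such a switch was gene 419, with 9, 21 and 33 counts in Westar and 0 in every mutant library. Set against a floor of 3 counts over the mutant group, this was at least 18.3-fold lower. The floor covers counting error only, and gene 419 passed neither the rule nor the filter of the test, so it has no p-value. Gene 4271 had 15, 1 and 2 counts in Westar and 0 in every mutant library. The other 3 were at 0 in all Westar libraries, with 12, 11 and 0 mutant counts at gene 5462, 4, 11 and 0 at gene 4614, and 8, 7 and 3 at gene 4857. Reads of genes 5462 and 4614 thus came from 2 libraries. These genes were chosen after their values were seen.

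A shift shared by neighbouring genes was then sought with windows of 50 expressed genes, 76 on C03 and 964 over the placed chromosomes. Tested on the window medians of log2(CPM + 0.5), 0 of the 76 C03 windows were called, where 0.104% of all windows were called (limma, adjusted p under 0.05). At an unadjusted p under 0.05 there were 5 C03 windows, 6.58%, beside 9.02% of all windows. The differences ran from -0.26 to 0.23 (log2), with 41 windows above 0 and 35 below. The lowest value lay at numbers 6880 to 6993 (-0.26, SE 0.0893, limma adjusted p = 0.494), the window that holds gene 6890. When Westar library 1 and mutant library 3 were left out, 1 of the 76 C03 windows was called, beside 8 of all 964 windows. The C03 window was numbers 6696 to 6786, where the median was 0.38 higher in the mutant (SE 0.103, limma adjusted p = 0.029). With all 6 libraries this window was at 0.23 (SE 0.0971, limma adjusted p = 0.504). It holds the abundant genes 6748 and 6760, which weigh no more than other genes in a median of 50.

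Such medians can move when a different gene becomes the middle one, so a second measure, added after the data were seen, first centred each gene on its own mean. With it the C03 windows lay between -0.084 and 0.09, with a median of -0.001 and a median SE of 0.0327. Of the 76 windows, 37 were above 0 and 39 below. Without both libraries that stood apart, this measure called 0 C03 windows and 3 of all 964 windows. With all 6 libraries, the window at numbers 6696 to 6786 was at 0.05 (SE 0.0324, limma adjusted p = 0.731). Called windows numbered 0 on C03 and 0% of all windows, with 7 C03 windows at an unadjusted p under 0.05 (9.21%, beside 9.54% of all windows; smallest limma adjusted p on C03 = 0.458). The 95% intervals of the 76 shifts reached from -0.17 to 0.18 at their furthest, and the median interval, not adjusted for the number of windows, was 0.0727 on either side.

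On A10, where mutant library 3 stood apart, the same measure put all 36 windows below 0, with a median of -0.11, and 0 of them were called (limma), with 6 at an unadjusted p under 0.05. On A03 the 66 windows ran from -0.09 to 0.09. No window of C03 reached 0.1 in either direction, and 18 of the 790 windows on the chromosomes other than C03, A10 and C09 did.

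**Figure D5:**
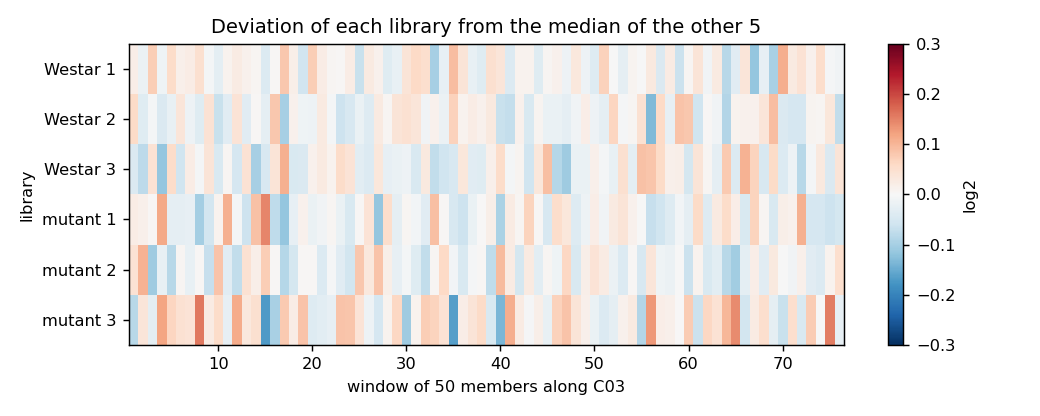
Deviation of each library (rows) from the median of the other 5 libraries, as the median log2 difference over windows of 50 expressed genes along C03 (columns). The scale runs from -0.3 to 0.3, and the strongest values, between -0.17 and 0.16, lie in mutant library 3 without a long block of 1 colour.

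Library by library, no stretch of C03 moved as a block. The window deviations of the Westar libraries ran from -0.13 to 0.11, those of mutant libraries 1 and 2 from -0.12 to 0.15, and those of mutant library 3 from -0.17 to 0.16. Deviations of 0.1 or more were found in 11 windows of mutant library 3 and in 1 to 7 windows of each other library, and 0 windows of any library reached 0.2. The plot of library deviations shows these windows scattered along the chromosome.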

How the data were processed

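The aligner HISAT2 (version 2.2.1) and the counter featureCounts are named per the submitters' processing notes. The authors deposited raw read counts per gene, 1 column per library and none pooled. The build, the gene models, strandedness and how reads with several hits were handled are details not given in the sources used here, so reads of near-identical copies may be split, shared or dropped. Columns were matched to libraries by group and replicate number in the titles. The members and lists were chosen with earlier results of these data known.

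All rows were tested together with edgeR 4.0.16 (R 4.3.3; quasi-likelihood F test, TMM scaling, filterByExpr, group as the sole term, Benjamini-Hochberg over 48524 genes), then C03 was read. SEs come from the F statistic. CPM used TMM-scaled library sizes. Windows of 50 genes were fitted with limma 3.58.1 on log2(CPM + 0.5). Both fits were run on simulated data. The simulated window shifts were larger than those of the C03 windows of 50 genes, so that run says nothing on shifts of the size seen. Alternatives were 2 other scalings, 2 other filters, DESeq2 1.42.0, limma-voom, a replicate block, an adjusted p of 0.01, window settings and left-out libraries. Named genes were all called C03 genes with full IDs for the 2 largest rises and falls, their nearest neighbours, the 5 with the most reads, and any gene with 0 counts throughout 1 group and 10 or more in every library of the other (none was found). Others were chosen after their values were seen.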

Additional observations from a re-analysis of the deposited data

How the results depend on the processing

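The 8 called C03 genes became 47 with no filter beyond all-zero genes (0.935% of C03, beside 0.665% of all genes tested). DESeq2 gave 73 (1.95%, beside 1.61%), limma-voom 5 (0.133%, beside 0.14%) and the replicate block 4 (0.107%, beside 0.101%). At an adjusted p under 0.01 the count was 1, for which no share over all genes is given. With 1 library left out it was 1 to 14 (all genes: 0.0366% to 0.339%). Without both libraries that stood apart it was 5 (0.133%, beside 0.105%). All 8 were among the 47 and among the 73, while the block shared 3 with them. What made these counts differ was not examined, so the cause was not tested. Median-of-ratios scaling gave 8 (0.213%, beside 0.202% of all genes) and library-size scaling 9 (0.24%, beside 0.233%). The rule's own filter gave 8 (0.212%, beside 0.197%). Deviations of same-numbered libraries correlated at -0.15, -0.09 and 0.15, so the numbers were not taken to pair the libraries. No called gene changed direction in its 14 alternatives. The C03 median log2 fold change moved to -0.036 with library-size scaling, where the median of all tested genes was -0.041. The C03 share difference kept its sign in all 11 alternatives. Called C03 windows stayed at 0 except for 1 without both libraries that stood apart, where 8 of all 964 windows were called. Depth limits the genes with few counts, such as gene 4436.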
